A study of Mus musculus with 24 samples.

Results

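Hemopexin (Hpx), haptoglobin (Hp), transferrin (Trf), ceruloplasmin (Cp), hepcidin (Hamp) and the ferritin heavy and light chains (Fth1 and Ftl1) were followed in RNA of extracellular vesicles, the membrane-bound particles that cells release into blood. The rows were taken by gene symbol, and all 7 symbols were found among the 21960 genes of the table. Vesicles were precipitated with ExoQuick from plasma of male C57BL/6J mice, an inbred strain. The groups were mice with a ligated bile duct (BDL) at day 15 after surgery, sham-operated mice at day 15, BDL mice at day 8 and sham mice at day 8, with 6 animals and 1 library per animal in each group. The labels do not state the ages of the mice. Ligation stops the flow of bile and is used as a surgical model of cholestasis. Liver is given as the tissue of every sample, but the site is given as extracellular vesicles and the protocol starts from blood plasma. The 18 hepatocyte marker genes examined, among them Alb, Apoa1 and Fgb, held 0.209% to 1.65% of counts in BDL mice and 0.00191% to 0.0119% in sham mice at day 15. At day 8 the same genes held 0.0248% to 0.283% in BDL mice and 0.000465% to 0.00922% in sham mice. Hepatocyte markers were thus near 0 in sham vesicles, where genes with no count included Fgg, Serpina1d and Serpina3k at day 15 and Apoh, Fgb and Serpina1d at day 8.

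Iron and heme are needed by every cell and are toxic when free. Hepatocytes secrete the plasma proteins that hold them: hemopexin binds heme, haptoglobin binds hemoglobin released from red cells, transferrin carries ferric iron to cells, and ceruloplasmin, a copper protein, oxidises ferrous iron so that transferrin can take it up. Hepcidin is a small hormone, also made mainly by hepatocytes, which lowers plasma iron by causing the iron exporter ferroportin to be degraded. Ferritin stores iron inside nearly all cells in a shell of heavy and light chains, of which the heavy chain oxidises iron. Hemopexin, haptoglobin, ceruloplasmin and hepcidin are known as acute-phase products of the liver, while mouse transferrin is made by the liver at a high level without inflammation.

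The ferritin chains and the liver-made genes differ in a short RNA element. The iron-responsive element is a hairpin in the 5′ untranslated region to which iron regulatory proteins bind, blocking translation when iron is low. A search of GENCODE M21 transcripts for a bulged C, 5 paired bases on each side and the loop CAGTGN found it in the main transcripts of both ferritin chains and in those of none of the other 5 genes. The elements are shown because the ferritin chains share them, with the loop in capitals.
Fth1 element: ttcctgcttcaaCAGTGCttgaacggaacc
Ftl1 element: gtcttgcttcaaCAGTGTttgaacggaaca
The Fth1 element lay at bases 87 to 116 of a 5′ untranslated region of 224 bases, and the Ftl1 element at bases 78 to 107 of 253. Among 18412 5′ untranslated regions of at least 30 bases, 14 (0.0760%) held such an element.

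Upstream windows of 250 bases from RefSeq (GRCm38.p6) were at hand for 5 of the 7 genes. Those of Hpx and Hamp are shown because these genes were at or near 0 in sham mice and had counts in BDL mice, so that they carry the sharpest contrast below. Capitals mark matches to motifs searched on both strands, and positions are counted back from the transcript start.
Hpx chr7:105600117-105600366, minus strand: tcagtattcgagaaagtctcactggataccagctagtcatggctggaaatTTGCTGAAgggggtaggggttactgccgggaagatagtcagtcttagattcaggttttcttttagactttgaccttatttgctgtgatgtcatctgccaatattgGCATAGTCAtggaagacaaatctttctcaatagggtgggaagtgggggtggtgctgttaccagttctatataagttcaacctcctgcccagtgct
Hamp chr7:30944030-30944279, minus strand: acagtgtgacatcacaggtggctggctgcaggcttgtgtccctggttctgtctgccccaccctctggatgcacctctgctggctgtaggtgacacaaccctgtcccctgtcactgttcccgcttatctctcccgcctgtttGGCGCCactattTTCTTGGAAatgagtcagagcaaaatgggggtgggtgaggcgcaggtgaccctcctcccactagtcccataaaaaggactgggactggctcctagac
In the Hpx window, TTGCTGAA at -200 to -193 matched the C/EBP letters TTGCNNAA, and GCATAGTCA at -95 to -87 matched the antioxidant response letters TGACNNNGC on the other strand. In the Hamp window, GGCGCC at -109 to -104 matched the BMP-responsive letters GGCGCC, and TTCTTGGAA at -97 to -89 matched the STAT letters TTCNNNGAA. Of 32851 windows of the same length, 9.56% held the C/EBP letters, 10.2% the antioxidant response letters, 9.59% the BMP-responsive letters and 7.02% the STAT letters. A match describes the letters of the window and is not a measured binding site. The window of Ftl1 held none of the 4 motifs and had 65.2% G and C, against 57.2% for Hamp and 44.8% for Hpx, with a median of 52.4% over all windows.

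Libraries held 315404 to 465744 counts in BDL mice and 157133 to 351201 in sham mice at day 15, and 167939 to 937963 in BDL mice and 101733 to 824640 in sham mice at day 8. Levels are given as CPM, each library's counts scaled to a common total after TMM normalisation. The library of BDL mouse 3 at day 8 stood apart from the other 5 of its group: hepatocyte marker genes held 0.283% of its counts, against 0.0248% to 0.0631% in the others, and results that rest on it are given with and without it. The ligation effect was tested for 4112 genes, of which 4.55% were called in either direction at day 15 (3.48% higher and 1.07% lower in BDL mice) and 3.14% at day 8 (2.77% higher and 0.365% lower), at an edgeR adjusted p under 0.05. With total counts in place of TMM, 115 genes were called higher and 172 lower at day 15, in place of 143 and 44, and 56 higher and 77 lower at day 8, in place of 114 and 15; the median log2 difference of all genes then moved to -0.22 at day 15 and -0.25 at day 8. The genes called higher were Hpx, Hp, Trf and Cp at day 15 and Hpx, Hp, Trf and Ftl1 at day 8, and none of the 7 was called lower. Hamp did not pass the filter on low counts. Hpx passed it through the BDL libraries alone, so it had to differ. Hp and Cp also passed only with the help of BDL libraries, because too few sham libraries reached the cutoff. Nothing is read from the number called among the genes that passed.

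**Figure D1:**
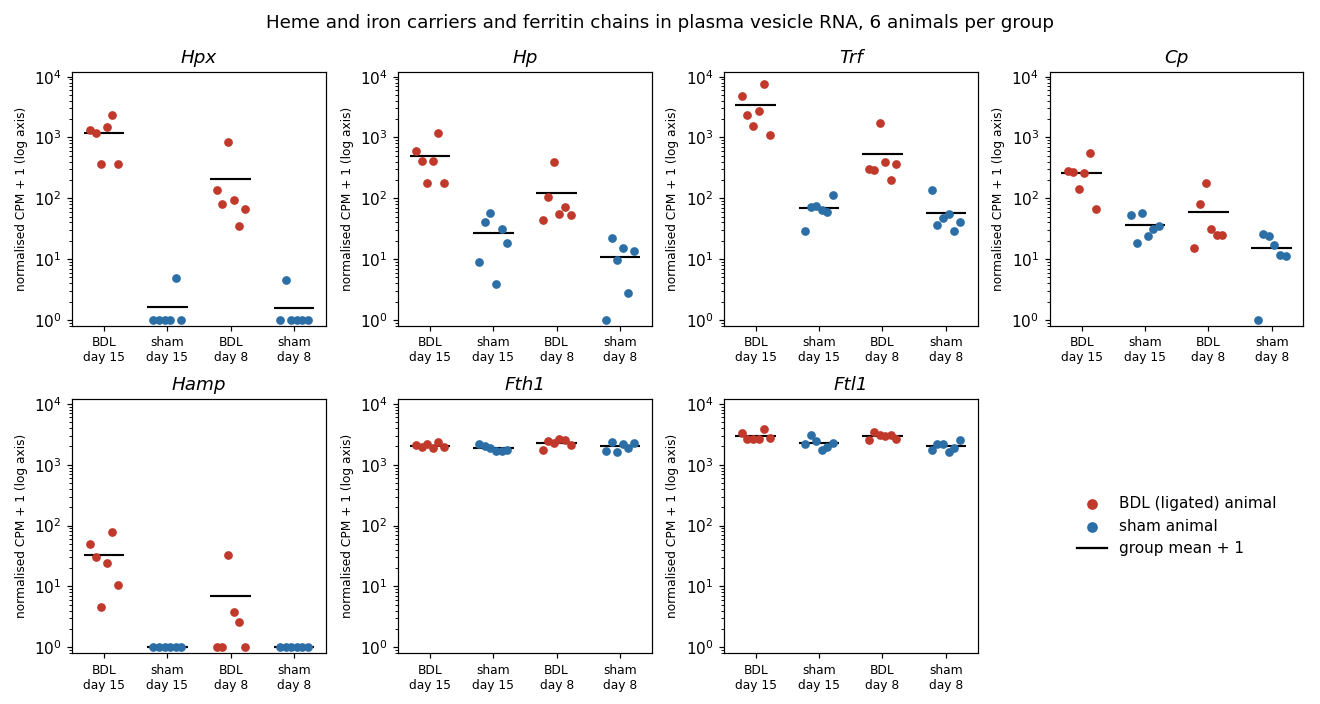
Normalised CPM plus 1 (log axis) of the 7 genes in each animal, 6 animals per group, with BDL mice in red and sham mice in blue at each day; black lines are group means plus 1. The 5 liver-made genes stood higher in every BDL mouse than in any sham mouse at day 15, while the ferritin chains lay between 1594 and 3842 CPM in all 24 libraries. No share over all genes is given for such separation, so nothing is read from the number of genes.

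The scavengers of heme and hemoglobin were higher in BDL mice at both days. Hpx lay between 368 and 2335 CPM (median 1246) in BDL mice at day 15 and between 0 and 3.85 CPM (median 0) in sham mice, where mouse 5 held the only count. At day 8 it lay between 33.5 and 840 CPM (median 86.6) in BDL mice and between 0 and 3.52 CPM (median 0) in sham mice, where mouse 2 held the only count. The groups did not overlap on either day. Summed over libraries, BDL mice held 2332 Hpx counts and sham mice 1 at day 15, a ratio of 1817 after normalisation (exact 95% interval 326 to 71817, counting error only). At day 8 BDL mice held 335 and sham mice 1, a ratio of 347 (61.8 to 13739). A two-sided exact permutation test on log2(CPM + 1) gave p = 0.00216 on each day, the smallest it can give. The edgeR adjusted p, for a gene kept through the group where it was high, was 2.11e-07 at day 15 and 0.00011 at day 8, with fitted log2 fold changes of 10.17 and 8.13 (SE 1.04 and 1.07), which depend on the prior count because the sham groups held a single count each. Without the sham libraries that held that count the fitted values were 11.77 and 9.19, and without BDL mouse 3 the day 8 value was 6.77. Hpx lies on GRCm38 chromosome 7 from 105591613 to 105600137, on the minus strand, with 10 exons in its main transcript.

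Hp was present in most sham libraries, at a low level. It lay between 180.4 and 1172 CPM (median 408) in BDL mice and between 2.89 and 55.6 CPM (median 23.9) in sham mice at day 15. At day 8 the range was 43.1 to 391 CPM (median 63.3) in BDL mice and 0 to 21.1 CPM (median 10.7) in sham mice. Every BDL mouse stood above every sham mouse of its day. Hp rose by 4.37 on the log2 scale at day 15 (SE 0.62, edgeR adjusted p = 2.3e-05) and by 3.35 at day 8 (SE 0.66, edgeR adjusted p = 0.00638). These p-values are for a gene that the filter kept through the group where it was high. Without BDL mouse 3 the day 8 difference was 2.51 (edgeR adjusted p = 0.0195). The gene lies on chromosome 8 from 109575128 to 109579172, on the minus strand.

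Trf, the iron carrier, had the highest mean level per kilobase of the 5 liver-made genes in each of the 4 groups. Levels ran from 1077 to 7681 CPM (median 2551) in BDL mice and from 28.2 to 111 CPM (median 67.2) in sham mice at day 15. They ran from 196 to 1700.3 CPM (median 332) in BDL mice and from 28.5 to 134 CPM (median 42.6) in sham mice at day 8, where the highest values belonged to BDL mouse 3 and sham mouse 1. BDL and sham mice did not overlap on either day. The log2 fold change was 5.64 at day 15 (SE 0.57, edgeR adjusted p = 2.11e-07) and 3.43 at day 8 (SE 0.54, edgeR adjusted p = 0.000714), and 2.64 at day 8 without BDL mouse 3 (edgeR adjusted p = 0.000986). Trf lies on chromosome 9 from 103204001 to 103230444 on the minus strand and overlaps Gm20425 on the same strand, which held 32 counts over the 24 libraries; how reads of the overlap were divided was not stated in the labels.

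The ferroxidase Cp was higher in BDL mice at day 15 and did not pass the test at day 8. It lay between 66.5 and 545 CPM (median 268) in BDL mice and between 17.7 and 55.6 CPM (median 32.5) in sham mice at day 15, with no overlap. At day 8 it lay between 14.4 and 180 CPM (median 27.0) in BDL mice and between 0 and 24.6 CPM (median 13.3) in sham mice, and 3 of 6 BDL mice stood above all sham mice. The log2 fold change was 2.92 at day 15 (SE 0.50, edgeR adjusted p = 0.000308) and 1.76 at day 8 (SE 0.58, edgeR adjusted p = 0.105). As for Hp, the filter kept Cp through the BDL libraries. With the animal number as a block the day 8 value was 1.65 and passed (edgeR adjusted p = 0.0187), and with DESeq2 it was 1.91 and passed (DESeq2 adjusted p = 0.0221). Without BDL mouse 3 the day 8 value was 1.04 (edgeR adjusted p = 0.326). Cp lies on chromosome 3 from 19957054 to 20009145 on the plus strand and overlaps Hps3 on the other strand, which held 170 counts over the 24 libraries; whether strand was used in the counting was not stated in the labels.

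Hamp was detected in BDL mice only. At day 15 it had 64 counts in BDL mice, in 6 of 6 libraries and between 3.61 and 77.8 CPM (median 26.2), and 0 counts in sham mice, which allows up to 2.03 CPM over the group. At day 8 it had 9 counts in BDL mice, 6 of them in mouse 3, and 0 counts in sham mice, which allows up to 1.08 CPM. Against a floor of 3 counts over the sham group, Hamp was at least 16.6-fold higher in BDL mice at day 15 and at least 3.11-fold higher at day 8. An exact permutation test (two-sided, on log2(CPM + 1)) of the 6 BDL and 6 sham mice gave p = 0.00216 at day 15, the smallest it can give, and p = 0.182 at day 8, where 3 of 6 BDL libraries held no count. Without BDL mouse 3 the day 8 BDL group held 3 counts, no more than the floor, so no fold is given (exact permutation p = 0.182, the smallest 5 and 6 animals can give with these values). The gene lies on chromosome 7 from 30942368 to 30944032 on the minus strand; its neighbour copy Hamp2 held 2 counts in all 24 libraries.

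The ferritin chains were abundant in every library and moved little. Fth1 lay between 1857 and 2329 CPM (median 2056) in BDL mice and between 1679 and 2168 CPM (median 1796) in sham mice at day 15. At day 8 it lay between 1715 and 2653 CPM (median 2384) in BDL mice and between 1594 and 2383 CPM (median 2012) in sham mice. The groups overlapped on both days, and the log2 fold change was 0.15 at day 15 (95% interval -0.12 to 0.43, edgeR adjusted p = 0.591) and 0.20 at day 8 (-0.08 to 0.47, edgeR adjusted p = 0.539). Its sign turned to -0.06 and -0.10 with total counts in place of TMM, a setting in which the median of all genes was -0.22 at day 15 and -0.25 at day 8. Fth1 lies on chromosome 19 from 9980598 to 9985098, on the plus strand.

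Ftl1 ran from 2604 to 3842 CPM (median 2725) in BDL mice and from 1751 to 3062 CPM (median 2243) in sham mice at day 15. At day 8 it ran from 2555 to 3430.5 CPM (median 2974) in BDL mice and from 1628 to 2560.3 CPM (median 2013) in sham mice, and 5 of 6 BDL mice stood above all sham mice. The log2 fold change was 0.38 at day 15 (SE 0.15, edgeR adjusted p = 0.145) and 0.53 at day 8 (SE 0.15, 95% interval 0.22 to 0.84, edgeR adjusted p = 0.0474). The day 8 call was close to the threshold: it was lost in 10 of the 12 refits that left out 1 library, with values of 0.47 to 0.61, and with total counts the value was 0.23 (edgeR adjusted p = 0.357). The day 15 difference passed without sham mouse 2 (0.48, edgeR adjusted p = 0.0478). Red cell markers are given beside it: the 13 erythroid genes in the table held 0.122% to 0.330% of counts in BDL mice and 0.111% to 0.432% in sham mice at day 15, and 0.249% to 0.518% in BDL mice and 0.150% to 0.284% in sham mice at day 8. Their part in the Ftl1 difference was not tested. Ftl1 lies on chromosome 7 from 45457944 to 45459884 on the minus strand, and its processed copy Ftl1-ps1 held 223 counts over the 24 libraries.

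**Figure D2:**
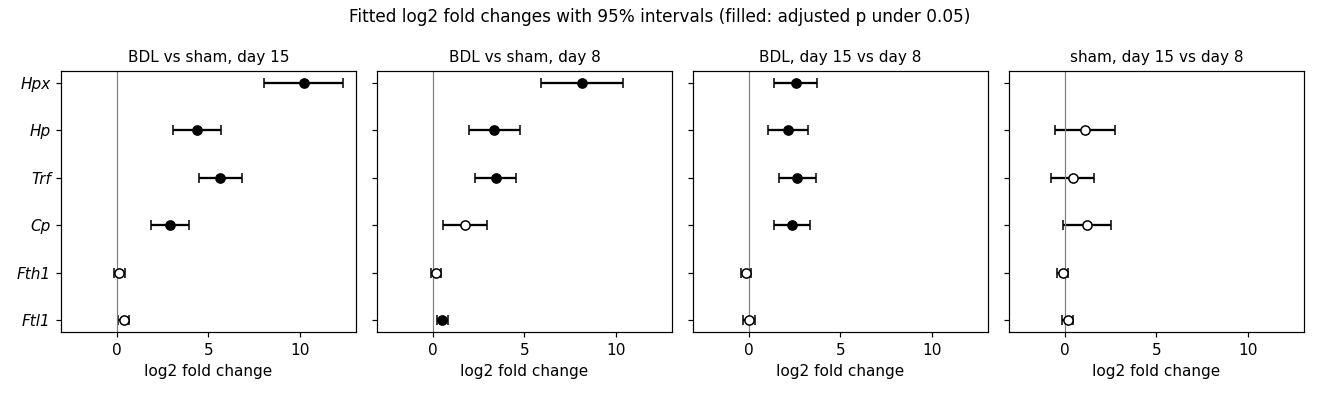
Fitted log2 fold changes (horizontal axis) of the 6 tested genes in 4 comparisons, with 95% intervals; filled points have an edgeR adjusted p under 0.05. Hpx, Hp and Trf lie far right of 0 at both days and the ferritin chains within 0.53 of it; Hpx is left out between sham groups, which held 1 count each.

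The liver-made carriers were then set against ferritin within each library, a ratio that needs no scaling between libraries. The 5 liver-made genes together held 36.4 to 191 counts per 100 ferritin counts in BDL mice (mean 100.5 ± 57.1, SD, n = 6) and 2.02 to 4.27 in sham mice (3.14 ± 0.903) at day 15. At day 8 they held 5.88 to 59.1 in BDL mice (17.8 ± 20.3) and 1.10 to 3.89 in sham mice (2.07 ± 0.996). The highest value at day 8 was that of BDL mouse 3, and the next highest was 11.6. BDL and sham mice did not overlap on either day. The log2 ratio was -0.21 ± 0.91 in BDL mice and -5.02 ± 0.42 in sham mice at day 15, a difference of 4.81, and -2.98 ± 1.14 in BDL mice and -5.69 ± 0.65 in sham mice at day 8, a difference of 2.72; no test was run, because the genes were chosen with these data known. Without Hpx the differences were 4.45 and 2.44, and without BDL mouse 3 the day 8 difference was 2.28.

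The ratio moved through its numerator. Ferritin held 0.432% ± 0.0444 of all counts in BDL mice and 0.412% ± 0.0569 in sham mice at day 15, and 0.439% ± 0.0844 in BDL mice and 0.413% ± 0.0510 in sham mice at day 8. The carriers held 0.453% ± 0.306 in BDL mice and 0.0128% ± 0.00387 in sham mice at day 15, and 0.0685% ± 0.0627 in BDL mice and 0.00829% ± 0.00325 in sham mice at day 8. Within ferritin, the light chain had 1.44 ± 0.16 counts per heavy-chain count in BDL mice and 1.23 ± 0.19 in sham mice at day 15, and 1.29 ± 0.14 in BDL mice and 1.03 ± 0.20 in sham mice at day 8, with overlapping groups on both days. In bulk vesicle RNA, more vesicles from a cell type and more RNA of a gene per vesicle cannot be told apart.

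**Figure D3:**
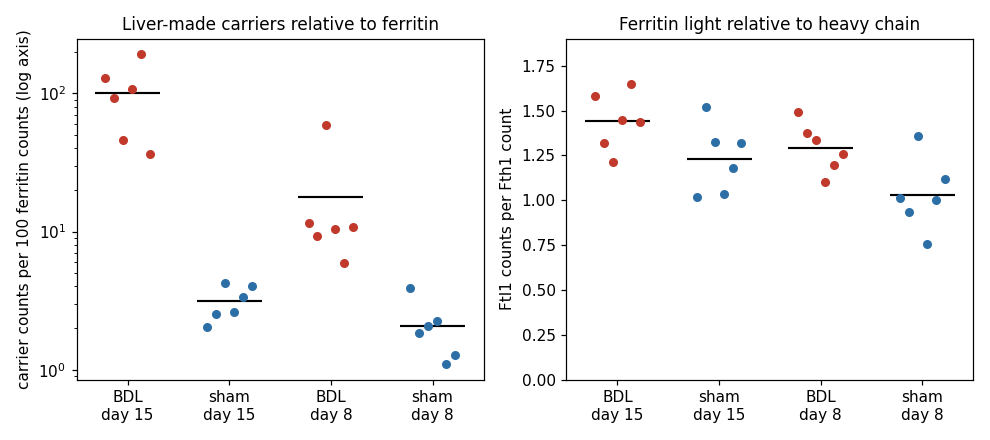
Left, counts of Hpx, Hp, Trf, Cp and Hamp together per 100 counts of Fth1 and Ftl1 in each animal (log axis); right, Ftl1 counts per Fth1 count. Red points are BDL mice and blue points sham mice, 6 per group, and black lines are means; the left panel separates BDL from sham mice, with means of 100.5 and 3.14 at day 15 and 17.8 and 2.07 at day 8, and the right panel shows overlapping groups.

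Levels were also compared between the genes per kilobase of their main transcripts. In BDL mice at day 15 the order of mean CPM per kilobase was Ftl1 (3087), Fth1 (2225), Trf (1313), Hpx (782), Hp (364), Hamp (78.4) and Cp (65.0). In sham mice at day 15 it was Ftl1 (2367), Fth1 (1999.5), Trf (26.3), Hp (19.1), Cp (8.84), Hpx (0.428) and Hamp (0). In BDL mice at day 8 the order was Ftl1 (3029), Fth1 (2467), Trf (211), Hpx (139), Hp (88.6), Hamp (14.6) and Cp (14.5), and in sham mice at day 8 it was Fth1 (2153), Ftl1 (2096), Trf (21.9), Hp (7.26), Cp (3.48), Hpx (0.391) and Hamp (0). Hpx thus stood above Hp and Cp in BDL mice and below both in sham mice, at both days. The place of Hamp above Cp in BDL mice at day 8 rested on mouse 3, at 77.3 for Hamp from 6 counts. The medians of that group were 1.95 for Hamp and 6.71 for Cp, the other way round. Per-animal ranges overlapped between most neighbours in these orders: at day 15 the lowest Ftl1 level per kilobase in BDL mice was 2691, above the highest Fth1 level of 2507, whereas Trf (419 to 2987) overlapped both Fth1 (1999.1 to 2507) and Hpx (245 to 1557). Between the ferritin chains and Trf the ranges were far apart in sham mice, where no Trf level exceeded 43.2 at day 15 and 52.1 at day 8, and no ferritin level was under 1807 and 1682.

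Among BDL mice the carriers were higher at day 15 than at day 8, and no such call was made between the sham groups. Of the 4112 genes, 4.35% were called in BDL mice, 2.26% higher and 2.09% lower at day 15 than at day 8 (100 higher and 54 lower with total counts, in place of 93 and 86), and Hpx, Hp, Trf and Cp were among those called higher. The log2 differences were 2.57 for Hpx (SE 0.56, edgeR adjusted p = 0.0114), 2.13 for Hp (SE 0.52, edgeR adjusted p = 0.0202), 2.65 for Trf (SE 0.48, edgeR adjusted p = 0.00207) and 2.37 for Cp (SE 0.47, edgeR adjusted p = 0.00472). In each of these genes 4 of 6 mice at day 15 stood above all mice at day 8, and BDL mouse 3 at day 8 reached into the day 15 range. Without that mouse the differences were 3.94, 2.95, 3.45 and 3.08. The Hp call was lost without BDL mouse 5 at day 15 (1.66, edgeR adjusted p = 0.0746) and without BDL mouse 4, 5 or 6 at day 8 (1.94 to 2.01), and the Hpx call was lost with DESeq2 (2.52, DESeq2 adjusted p = 0.0515) and with only the BDL groups in the fit (2.56, edgeR adjusted p = 0.0519). Hamp had 64 counts at day 15 and 9 at day 8, a ratio of 10.1 after normalisation (exact 95% interval 4.99 to 23.1, counting error only), with p = 0.0173 in the two-sided exact permutation test. Without BDL mouse 3 the day 8 group held 3 Hamp counts, and the ratio was 28.1 (9.20 to 140, exact permutation p = 0.00433). The ferritin chains gave -0.15 for Fth1 (edgeR adjusted p = 0.606) and 0.03 for Ftl1 (edgeR adjusted p = 0.958).

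In sham mice 0% of genes were called between the days (439 genes at an unadjusted p under 0.05, and 5 with DESeq2), and none of the genes described here was among them. The log2 difference was 1.12 for Hp (95% interval -0.54 to 2.77), 0.44 for Trf (-0.72 to 1.59) and 1.21 for Cp (-0.08 to 2.51). For Cp, 4 sham mice at day 15 stood above all sham mice at day 8, with 3 for Hp and 0 for Trf. An exact permutation test between the sham groups, unadjusted, gave p = 0.013 for Cp, 0.154 for Hp and 0.400 for Trf. Higher Cp at day 15 was thus not confined to BDL mice, although edgeR made no call in sham mice. Whether the ligation effect itself differed between days was tested directly, with 0% of genes called (234 at an unadjusted p under 0.05, and 1 with DESeq2). The effect at day 15 minus that at day 8 was 2.22 for Trf (95% interval 0.71 to 3.72, edgeR adjusted p = 0.709), 1.02 for Hp (-1.01 to 3.05, edgeR adjusted p = 0.993), 1.16 for Cp (-0.50 to 2.82, edgeR adjusted p = 0.911), -0.04 for Fth1 (-0.44 to 0.35) and -0.15 for Ftl1 (-0.58 to 0.29). Trf was called with no filter on low counts (2.27, edgeR adjusted p = 5.46e-08) and without BDL mouse 3 at day 8 (3.00, edgeR adjusted p = 0.0413). With no filter the Trf value hardly moved, and genes were also called between the sham groups, where the main fit called none. Nothing is therefore read from the Trf call with no filter. No value is given for Hpx, whose sham groups held 1 count each.

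The carriers were next read against the hepatocyte markers of the same library. These 18 genes, which include none of the 7 described here, had 13 tested members. Of these, 13 were called higher in BDL mice at day 15 and 12 at day 8, against 3.48% and 2.77% of all 4112 tested genes. All 18 together held 85 sham counts at day 15 and 111 at day 8. They thus passed the filter almost only through BDL libraries, and nothing is read from the number called. Their part in the rise of the carriers was not tested. Counts of Hpx per 100 hepatocyte marker counts ran from 11.7 to 24.7 in BDL mice at day 15 and from 11.7 to 18.5 in BDL mice at day 8, although the marker counts themselves ran from 762 to 7685 at day 15 and from 106 to 861 at day 8. Hp ran from 5.88 to 7.48 at day 15 and from 5.66 to 27.4 at day 8. Trf ran from 38.5 to 59.0 at day 15 and from 37.4 to 75.0 at day 8. The ranges of the days overlapped for each carrier, Cp included (2.73 to 4.66 and 1.89 to 11.9), and the day 8 ranges of Hp and Cp rest on libraries with as few as 6 and 2 counts of the gene. BDL mouse 3 at day 8, whose carrier levels in CPM stood apart, lay inside the day 15 range for Cp (3.95), just under it for Trf (37.4) and within it for Hpx (18.5), and at 8.59 for Hp, above it.

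Sham mice gave another proportion. Pooled over the group, with only 85 hepatocyte marker counts at day 15 and 111 at day 8, the counts per 100 marker counts were 115 for Trf, 58.8 for Cp, 38.8 for Hp and 1.18 for Hpx in sham mice at day 15, against 43.6, 3.39, 6.41 and 15.2 in BDL mice. At day 8 they were 113 for Trf, 36.0 for Cp, 27.0 for Hp and 0.901 for Hpx in sham mice, against 53.8, 5.06, 10.8 and 16.01 in BDL mice. In these pooled values Trf, Cp and Hp stood higher against the markers in sham mice than in BDL mice, and Hpx lower. Sham mouse 6 held 76 of the 111 marker counts at day 8, and its own values of 40.8 for Trf, 10.5 for Cp and 13.2 for Hp lay inside the ranges of day 8 BDL mice. Without it the pooled day 8 sham values were 269 for Trf, 91.4 for Cp and 57.1 for Hp, from 35 marker counts. Sham values overlapped those of BDL mice in other animals too, such as mouse 4 for Hp (7.14) and mouse 5 for Trf (48.4) at day 15 and mouse 5 for Hp (8.33) at day 8. Of the carrier counts themselves, Hpx made up 22.4% ± 5.23 of them in BDL mice and 0.521% ± 1.28 in sham mice at day 15, while Cp made up 5.11% ± 1.13 in BDL mice and 29.1% ± 15.7 in sham mice. At day 8 Hpx made up 10.2% to 27.5% in BDL mice and 0% to 4.17% in sham mice, and Cp 6.70% ± 3.98 in BDL mice and 19.98% ± 11.2 in sham mice. Hp made up 9.15% ± 1.01 in BDL mice and 18.1% ± 12.0 in sham mice at day 15, and a median of 11.3% in BDL mice and 14.03% in sham mice at day 8, with overlapping groups on both days. Trf was the largest item in every group mean, at 62.8% in BDL mice and 52.2% in sham mice at day 15, and 61.4% in BDL mice and 66.4% in sham mice at day 8.

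**Figure D4:**
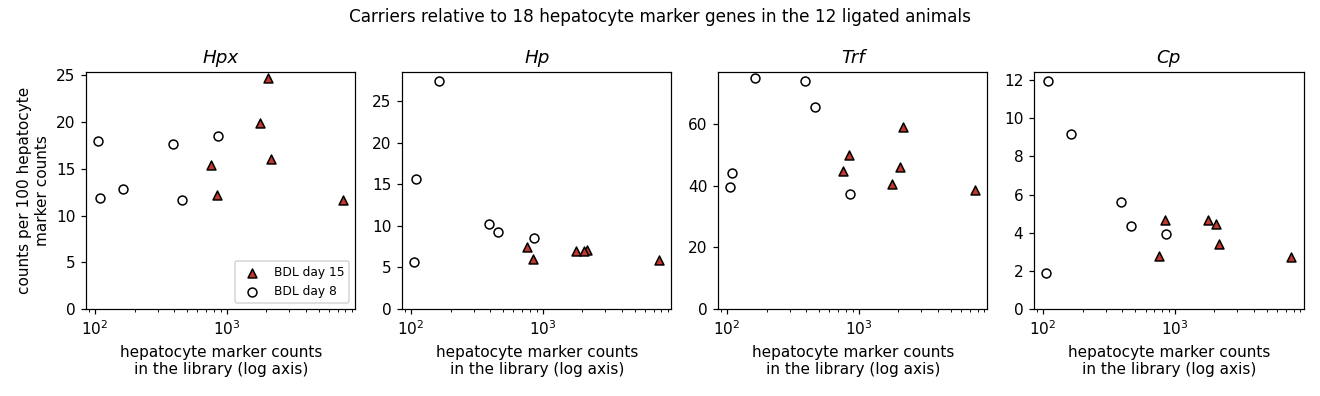
Counts of Hpx, Hp, Trf and Cp per 100 counts of the 18 hepatocyte markers (vertical axes) against the hepatocyte marker counts of the library (log axis) in the 12 BDL mice; red triangles are day 15 and open circles day 8. Hpx stays between 11.7 and 24.7 across marker counts of 106 to 7685, and the highest Hp and Cp values belong to day 8 libraries with 164 and 109 marker counts.

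Of the other genes of heme and iron handling, 71 were in the table and 33 were tested. At day 15 2 of them, Ambp and Alb, were called higher and none lower in BDL mice, against 3.48% called higher of all 4112 tested genes. The median log2 fold change of the 33 was 0.12, against -0.02 for all tested genes. At day 8 9 were called higher, against 2.77% of all tested genes, and none lower, with a median of 0.56 against 0.02. The 9 were Ambp, Alb, Lcn2, Slc48a1, Ncoa4 and the 4 hemoglobin chains. Nothing is read from the number called here or in the single lists below. Among other carriers made by the liver or by inflamed tissue, Ambp is the precursor of the heme-binding protein alpha-1-microglobulin. It had 204 counts in BDL mice and 1 in sham mice at day 15 (edgeR adjusted p = 4.01e-05). At day 8 it had 33 counts in BDL mice and 0 in sham mice, 11.4-fold a floor of 3 sham counts (edgeR adjusted p = 0.0189, and 0.0527 without sham mouse 4). The filter kept Ambp through the BDL libraries, so nothing is read from its calls. Alb, albumin, which also binds heme and is 1 of the hepatocyte markers above, rose by 7.19 at day 15 (edgeR adjusted p = 8.89e-06) and by 5.32 at day 8 (edgeR adjusted p = 0.00178, and 3.98 without BDL mouse 3). The limit given for the markers, which passed the filter almost only through BDL libraries, holds for Alb, so nothing is read from its calls. Lcn2, which sequesters iron-binding siderophores of bacteria, averaged 120 ± 57.9 CPM in BDL mice and 46.0 ± 48.6 CPM in sham mice at day 15 (log2 fold change 1.52, edgeR adjusted p = 0.129) and 68.2 ± 25.8 CPM in BDL mice and 11.1 ± 9.93 CPM in sham mice at day 8 (2.99, edgeR adjusted p = 0.0177, lost without sham mouse 4 or 5).

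Receptors and exporters of iron and heme gave few calls. Tfrc, the transferrin receptor of dividing cells and red cell precursors, had a log2 fold change of 0.84 at day 15 (edgeR adjusted p = 0.387) and 1.58 at day 8 (edgeR adjusted p = 0.077). Tfr2, the liver's iron-sensing transferrin receptor, was below the filter, with 37 counts in BDL mice and 0 in sham mice at day 15, at least 9.61-fold higher (two-sided exact permutation p = 0.00216, the smallest possible), and 9 in BDL mice and 1 in sham mice at day 8. Slc40a1, the iron exporter ferroportin on which hepcidin acts, gave 0.71 at day 15 (edgeR adjusted p = 0.577) and 0.84 at day 8 (edgeR adjusted p = 0.576). The receptors that clear the scavengers' complexes were not called either: Lrp1, the hemopexin receptor, gave 0.31 at day 15 (edgeR adjusted p = 0.616) and 0.56 at day 8 (edgeR adjusted p = 0.380), and Cd163, the haptoglobin receptor, was below the filter, with 16 counts in BDL mice and 15 in sham mice at day 15 and 21 in BDL mice and 10 in sham mice at day 8. Hmox1, which breaks heme down, gave 0.98 at day 15 (edgeR adjusted p = 0.361) and 1.70 at day 8 (edgeR adjusted p = 0.0658). Slc48a1, a heme transporter of endolysosomes, averaged 114 ± 26.6 CPM in BDL mice and 110 ± 33.0 CPM in sham mice at day 15 (0.07, edgeR adjusted p = 0.919), and 165 ± 62.0 CPM in BDL mice and 75.6 ± 16.9 CPM in sham mice at day 8 (1.07, edgeR adjusted p = 0.0171, lost without BDL mouse 2 and without sham mouse 4 or 5).

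In the list of iron sensing and ferritin handling, 10 of 17 genes were tested, with none called at day 15 and 1 called higher at day 8. This was Ncoa4, the receptor that delivers ferritin to lysosomes, at 405 ± 94.3 CPM in BDL mice and 175 ± 45.4 CPM in sham mice at day 8, with no overlap between the groups (log2 fold change 1.19, SE 0.25, edgeR adjusted p = 0.00855). At day 15 it averaged 288 ± 101 CPM in BDL mice and 195 ± 79.2 CPM in sham mice (0.57, edgeR adjusted p = 0.215). Ireb2, 1 of the proteins that bind the iron-responsive element, gave -0.30 at day 15 (edgeR adjusted p = 0.680) and 0.14 at day 8 (edgeR adjusted p = 0.887). Of the 21 genes of hepcidin control in the table, among them the BMP receptors and SMAD proteins, 8 were tested and none was called on either day, with medians of -0.12 at day 15 and -0.05 at day 8.

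The hemoglobin chains, whose protein haptoglobin binds, did not follow the carriers at day 15 or between days in BDL mice. None of the 4 chains in the table was called at day 15, with log2 fold changes of -0.23 to -0.03 and signs that changed with the library left out in Hba-a1, Hbb-bs and Hbb-bt. At day 8 all 4 were called higher, by 0.83 for Hba-a2 (edgeR adjusted p = 0.0438), 0.91 for Hba-a1 (edgeR adjusted p = 0.0263), 1.04 for Hbb-bt (edgeR adjusted p = 0.0471) and 1.08 for Hbb-bs (edgeR adjusted p = 0.0121). The Hbb-bs call held in each of the 12 refits without 1 library, while those of Hba-a1, Hba-a2 and Hbb-bt were lost in 6, 9 and 9 of them, and in the deeper libraries 4 to 6 alone none of the 4 chains, Ncoa4 or Slc48a1 was called. With total counts in place of TMM, Hbb-bs and Ncoa4 were called at day 8 and the other 3 chains and Slc48a1 were not. In BDL mice all 4 chains were lower at day 15 than at day 8, by -0.99 to -0.80, with edgeR adjusted p of 0.0358 to 0.0463, calls that were lost in 7 to 9 of 12 refits, whereas Hpx, Hp, Trf and Cp were higher. The erythroid shares given beside Ftl1 moved with the chains, and their part was not tested.

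Last, the genes whose library-to-library deviations from the group means were most like those of each gene were listed over the 24 libraries and 4052 genes, as Pearson r on log2(CPM + 1), with no test; all values share each library's depth and scaling. For Hpx they were Fgb (r = 0.895), Serpina3k (0.793) and Fgg (0.782). For Hp they included Idi1 (0.763) and Kng1 (0.727), and for Trf they were Gnmt (0.738), Itih4 (0.737) and Krt8 (0.735). For Cp they were Ctgf (0.859), Ctsl (0.804) and Chmp3 (0.790). Fth1 gave Srgap2 (0.806), Tacc1 (0.800) and the platelet gene Pf4 (0.756), and Ftl1 gave Sord (0.708), Uqcr11 (0.685) and Txn1 (0.674). The platelet markers, 10 genes, held 0.110% to 0.179% of counts in BDL mice and 0.0874% to 0.239% in sham mice at day 15, and 0.0878% to 0.924% in BDL mice and 0.1003% to 0.801% in sham mice at day 8; their part in the Fth1 level was not tested.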

How the data were processed

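The authors deposited 1 table of expected counts per gene for 24 libraries, without decimals. STAR and RSEM are named, per the submitters' processing notes, with no version, and nothing says who rounded the values. Those notes also list hg38, a human build, although the table's IDs belong to mouse genes; the build of the alignment is not known. Of 21960 identifiers, 21860 were found in GENCODE M21 (GRCm38), which gave coordinates and transcripts. Per the labels' protocols, libraries were made with a stranded kit without poly(A) selection or ribosomal RNA depletion, and reads carry no molecular identifiers. All 24 columns matched a sample title; per the design text each group held 6 animals.

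Genes were filtered with filterByExpr (minimum count 10, total 15; 4112 kept), scaled by TMM and compared by the quasi-likelihood test of edgeR 4.0.16 (group means as coefficients, Benjamini-Hochberg adjustment over all tested genes, threshold 0.05) in R 4.3.3, a procedure tested on simulated data. SE is the size of the log2 fold change over the square root of F. Genes under the filter were compared by an exact permutation test (two-sided, 924 arrangements of 6 and 6 animals, lowest possible p 0.00216). Floors are 3 counts over a group, and intervals of count ratios and floors cover counting error only. Libraries of 1 group differed beyond sampling noise, so none was merged. Alternatives were median-ratio factors, total counts, Lars2 and hemoglobin left out, DESeq2 1.42.0, no filter, only the groups compared, the animal number as a block, day 8 libraries 1 to 3 and the deeper 4 to 6 apart, and each library left out.

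Whether animal numbers in the titles pair libraries was checked from these data alone. Same-numbered deviations of the day 8 groups correlated by 0.150 to 0.299, with 6 of 6 over 0.1, against -0.028 to 0.097 at day 15. The own number was the best match in only 3 of 6 day 8 pairs, so a pairing is not established. Libraries 4 to 6 were the deeper ones in both day 8 groups, and the part of depth was not tested. Named were the 7 genes, up to 4 called genes per pathway list, 8 receptor, exporter, breakdown and sensing genes and the hemoglobin chains, and the 3 genes most like each member; genes outside the rule are named only as markers or overlaps, and a few genes are not reported here. The 7 genes and all lists were chosen with earlier results of these data known.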

Additional observations from a re-analysis of the deposited data

Results flagged for a closer look

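Within each group of 6, the highest and lowest value of each gene was compared with its nearest neighbour; a gap whose share of the group's range passed Dixon's 95% critical value was taken as standing apart. Of 26 gene and group combinations with at least 1 count, 7 had such a value. Chance gives about 1 in 20 only for normally spread values, which was not checked for CPM, so no excess is read from this number. In 4 of them the value was the highest of the day 8 BDL group and came from mouse 3: 840 CPM for Hpx, 391 CPM for Hp, 1700.3 CPM for Trf and 31.7 CPM for Hamp, the last from 6 counts. These 4 values share a library and are not independent. Another was Trf in sham mouse 1 at day 8, at 134 CPM, from 14 counts in the shallowest library (101733 counts). The remaining values were Hpx in sham mouse 2 at day 8 (3.52 CPM) and in sham mouse 5 at day 15 (3.85 CPM), each the single count of its group.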

How the results depend on the processing

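Hpx, Hp and Trf kept their ligation calls at both days, and Cp at day 15, under every alternative and every left-out library for which a value could be had (Hp and Cp were under the filter in day 8 libraries 1 to 3 alone). For Hpx, with 1 count in each sham group, this could hardly fail and adds no support. Hp and Cp were also kept by the filter through BDL libraries, so their unchanged calls share that limit. The day 8 call of Ftl1 was lost with median-ratio factors (0.51), total counts (0.23), no filter (0.49), only the groups compared (0.52), libraries 1 to 3 alone (0.51) and libraries 4 to 6 alone (0.49); without 1 library it ran from 0.47 to 0.61, and at day 15 from 0.30 to 0.48. Cp at day 8 passed with no filter (1.68), with DESeq2 (1.91) and with the animal number as a block (1.65). With total counts the sign turned for Fth1 at day 15 (-0.060), at day 8 (-0.10) and in the difference between days (0.043), and for Slc48a1 at day 15 (-0.13). Leaving out 1 library turned the sign of uncalled values: Slc48a1 (-0.042 to 0.18), Hba-a1 (-0.18 to 0.15), Hbb-bs (-0.20 to 0.21) and Hbb-bt (-0.35 to 0.20) at day 15, Ftl1 between days in BDL mice (-0.056 to 0.071; -0.051 with no filter) and Fth1 in the difference between days (-0.11 to 0.0100). The carrier to ferritin difference ran from 4.45 to 5.05 at day 15 and from 2.28 to 2.94 at day 8, and the permutation calls of Hamp held with 0.5 or 5 added. Leaving out 1 library, chosen after seeing the data, gave Hamp an exact permutation p of 0.00216 to 0.00433 at day 15, 0.0606 to 0.182 at day 8 and 0.00433 to 0.0368 between days in BDL mice; pooled counts per 100 hepatocyte marker counts were recomputed in the same way.

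Counts of called genes moved more. With no filter they were 688 at day 15, 298 at day 8, 51 for the difference, 652 between days in BDL mice and 150 between days in sham mice. Total counts gave 287 at day 15 and 1 for the difference (Chd9), and DESeq2 gave 1 for the difference and 5 between sham groups. The animal number as a block, a pairing not established on either day, gave 202 genes at day 8 and 1 for the difference. It gave 34 between days in BDL mice, where Hpx (3.22) and Hp (2.26) were then not called. Beside Cp at day 8 (above) the block changed no other call of the 7 genes. Only the groups compared gave 84 genes at day 8, libraries 1 to 3 alone 76 and libraries 4 to 6 alone 31. Leaving out 1 library gave 117 to 260 at day 15, 58 to 159 at day 8, 0 to 2 for the difference, 36 to 359 between days in BDL mice and 0 to 1 between days in sham mice. The cause of these changes was not tested. Leaving out the filter also raised the number of genes tested. Depth limits Hamp, Tfr2 and the sham levels of Hpx, where 1 count decides presence.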
